A study of Setaria viridis with 9 samples.

Results

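The 74 genes described here encode proteins of the chloroplast translation machinery of Setaria viridis, a small C4 grass. They were chosen from 17987 genes by their descriptions in the deposited table: each is called chloroplastic and is named as a ribosomal protein, an initiation, elongation, release, ribosome-recycling or ribosome-binding factor, or a tRNA ligase. By role, 26 are proteins of the large (50S) ribosomal subunit and 15 of the small (30S) subunit, 3 are initiation factors, 2 are elongation factors, 7 are release, recycling or ribosome-binding factors, and 21 are tRNA ligases. The descriptions of 23 of the 74 name the mitochondrion as well as the chloroplast. All 74 matched a RefSeq gene symbol, and all 74 passed the filter on low counts.

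Leaf polyadenylated RNA was sequenced from plants of the cultivar ME034V-1 carrying one of 3 genotype labels, with 3 libraries each that the labels call biological replicates. Gene-edited plants labelled ndhO carry null alleles of NdhO, which encodes part of the plastid NDH complex. Gene-edited plants labelled pgr5 carry null alleles of PGR5, a protein of the other route of cyclic electron flow around photosystem I, and plants labelled WT are unedited. All plants grew under 16 h of light and 8 h of darkness, and the youngest fully expanded leaves were sampled a few weeks after sowing. The labels do not say how many editing events each mutant label rests on.

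Chloroplasts keep a ribosome of bacterial type. Its rRNAs, tRNAs and some of its proteins are encoded in the chloroplast genome, while its other proteins, nearly all of its translation factors and all of its tRNA ligases are made in the cytosol from nuclear genes and imported. In leaves this machinery makes the chloroplast-encoded cores of the photosystems, the cytochrome b6f complex, the ATP synthase, the NDH complex and the large subunit of Rubisco. Many plant tRNA ligases are sent to both chloroplasts and mitochondria from a single gene.

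Libraries held from 11606570 to 18837265 counts, and the 74 genes took from 0.593% to 0.943% of them. Levels are given as CPM, counts scaled to a common library size with TMM factors, and they are compared between libraries for a gene or a fixed sum of genes, not between genes, since they are not per length. NdhO and PGR5 mRNA went against the labels. NdhO (LOC117858157) had 245, 443 and 446 CPM in the libraries labelled ndhO, 421, 20.5 and 48.4 CPM in those labelled pgr5, and 44.3, 617 and 230.0 CPM in those labelled WT. It was under 50 CPM in the libraries labelled pgr5 2, pgr5 3 and WT 1, and above 200 CPM in all 3 labelled ndhO. PGR5 (LOC117861247) had 38.1, 318 and 338 CPM in the libraries labelled ndhO, 287, 249.8 and 389 CPM in those labelled pgr5, and 376, 46.5 and 42.8 CPM in those labelled WT. Its values under 50 CPM came from ndhO 1 and from both WT 2 and WT 3. Since a null allele may still be transcribed, these values do not test the mutant labels. However, each library labelled WT was low in one of these transcripts, and ndhO 2, ndhO 3 and pgr5 1 were low in neither. Whether each label matches its plants was not tested. Every comparison below is therefore a comparison of labels, and a name such as WT 3 stands for the library labelled WT with replicate number 3. Leaf identity was plain in all 9 libraries: the 14 genes of the C4 cycle list summed to between 68591 and 92814 CPM, and the 38 photosystem and antenna genes to between 78038 and 135286 CPM.

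No chloroplast translation gene passed an adjusted p of 0.05 between any pair of labels (edgeR quasi-likelihood test with Benjamini-Hochberg adjustment over 17970 genes). The count was 0 of 74 for ndhO against WT, for pgr5 against WT and for pgr5 against ndhO, where 0% of all genes tested passed in each. At an unadjusted p under 0.05, 2 of 74 passed for ndhO against WT, where 2.74% of all genes did. None of the 74 passed at that level for pgr5 against WT (2.06% of all genes) or for pgr5 against ndhO (2.67% of all genes). DESeq2 called 0 of the 74 in all 3 comparisons, beside 0.0892%, 0.0335% and 0.0669% of 17936 genes, and limma-voom also called 0 of the 74. For any difference among the 3 labels, 0 of 74 passed at an unadjusted p under 0.05, against 1.91% of all genes. The authors' deposited table called none of the 74 (0) for ndhO, where 0% of all genes were called, and 0 for pgr5, where 2.51% of all genes were. In bulk leaf RNA a smaller share of chloroplast-rich cells and less RNA of this kind per cell cannot be told apart.

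Fold changes of the set fitted to the counts were small and leaned to one side. For ndhO minus WT the median log2 fold change over the 74 was 0.15, with 67 above 0 and 7 below, against a median of -0.0038 over all genes. For pgr5 minus WT the median was 0.19, with 65 above 0 and 9 below, against 0.0032 over all genes. The 2 comparisons share the 3 WT libraries, and members are not replicates of one another, so these counts carry no test. For pgr5 minus ndhO the median was 0.04, with 48 above 0 and 26 below, against 0.01 over all genes. The pooled standard deviation between libraries of one label, taken on the same median, was 0.42 on the log2 scale, larger than each of these 3 medians. In the authors' deposited table the median over the 74 was 0.12 for ndhO against WT, with 60 above 0. For pgr5 against WT it was -0.06 there, with 28 of 74 above 0, a lean to the other side. The authors' corrected values shift every WT library one way and every pgr5 library the opposite way. With a term for that side, the median fitted to the counts for pgr5 minus WT was -0.05, with 31 above 0 and 43 below. The size of that term is set by ndhO 3 against ndhO 1 and ndhO 2 alone. Whether this shift sets the lean of the deposited values was not tested.

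The direction of each median fitted to the counts rested on single libraries. Without WT 3, the median for ndhO minus WT was -0.05 with 31 of 74 above 0, and the median for pgr5 minus WT was -0.0011 with 37 above 0 and 37 below. Without pgr5 3, the median for pgr5 minus WT was -0.07 with 26 of 74 above 0. The same omission put the median for pgr5 minus ndhO at -0.25, with 7 above 0 and 67 below. Without WT 2 the medians moved the other way, to 0.38 for ndhO minus WT and 0.45 for pgr5 minus WT. Without pgr5 2 they stood at 0.43 for pgr5 minus WT and 0.25 for pgr5 minus ndhO, and without ndhO 1 the median for pgr5 minus ndhO was -0.08.

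**Figure D1:**
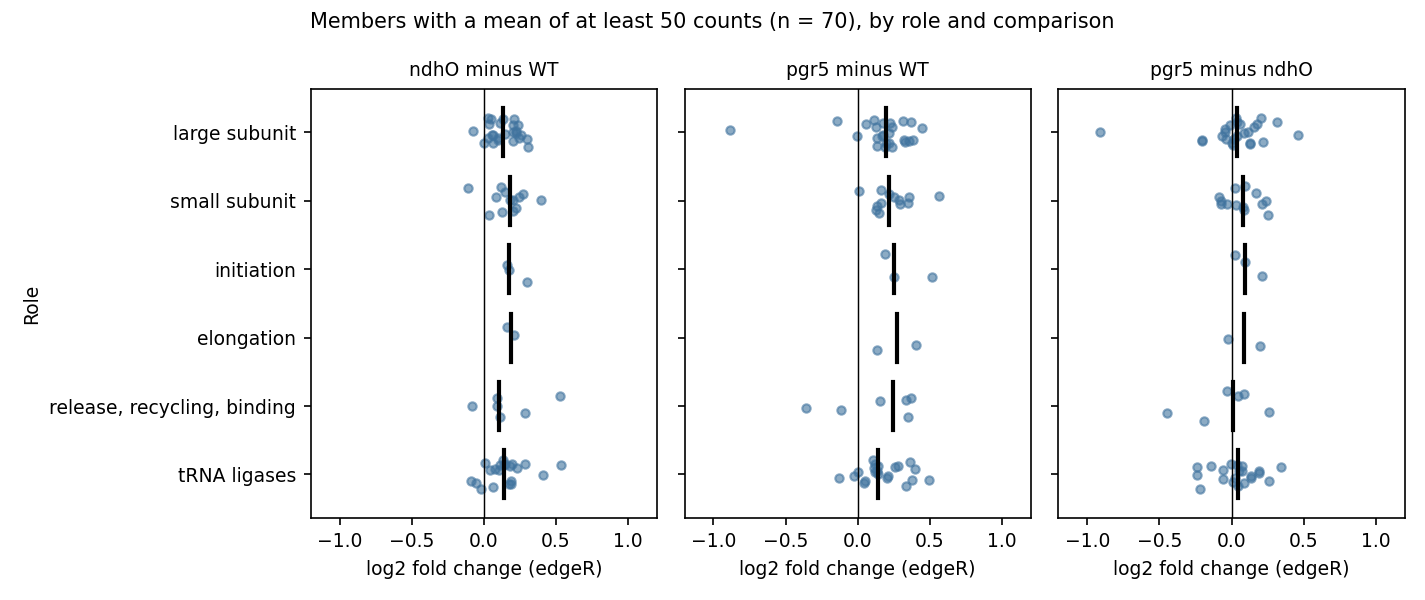
Log2 fold changes (edgeR, x axis) of the 70 members with a mean of at least 50 counts, by role (y axis) and comparison (panels), with 1 point per gene and a black bar at the median of the genes drawn. Points run from -0.91 to 0.56, most lie between 0 and 0.5 in the 2 comparisons with WT, and they spread on both sides of 0 for pgr5 minus ndhO.

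The set varied more between libraries of one label than between labels. Of the 74 genes, 60 were highest in the library labelled pgr5 3 (81.1%, against 16.9% of all genes), and 48 were lowest in the library labelled WT 3 (64.9%, against 15.3% of all genes). Below their own mean over the 9 libraries were 61 of 74 genes in ndhO 1 (46.3% of all genes), 64 in pgr5 2 (48.2% of all genes) and 65 in WT 3 (50% of all genes). In pgr5 3 that held for 3 of 74, against 47.9% of all genes. Each label thus had 1 library in which most of the set was low, and for 37 of the 74 genes ndhO 1, pgr5 2 and WT 3 were the 3 lowest of the 9, an order found for 5.56% of all genes. These 3 libraries were picked out after the values were seen. The median deviation of the 74 from their own means was -0.18 in ndhO 1, -0.42 in pgr5 2 and -0.65 in WT 3, against 0.57 in pgr5 3, on the log2 CPM scale. Differences between labels took a median of 9.02% of a member's variance over libraries, against 17.9% over all genes.

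**Figure D2:**
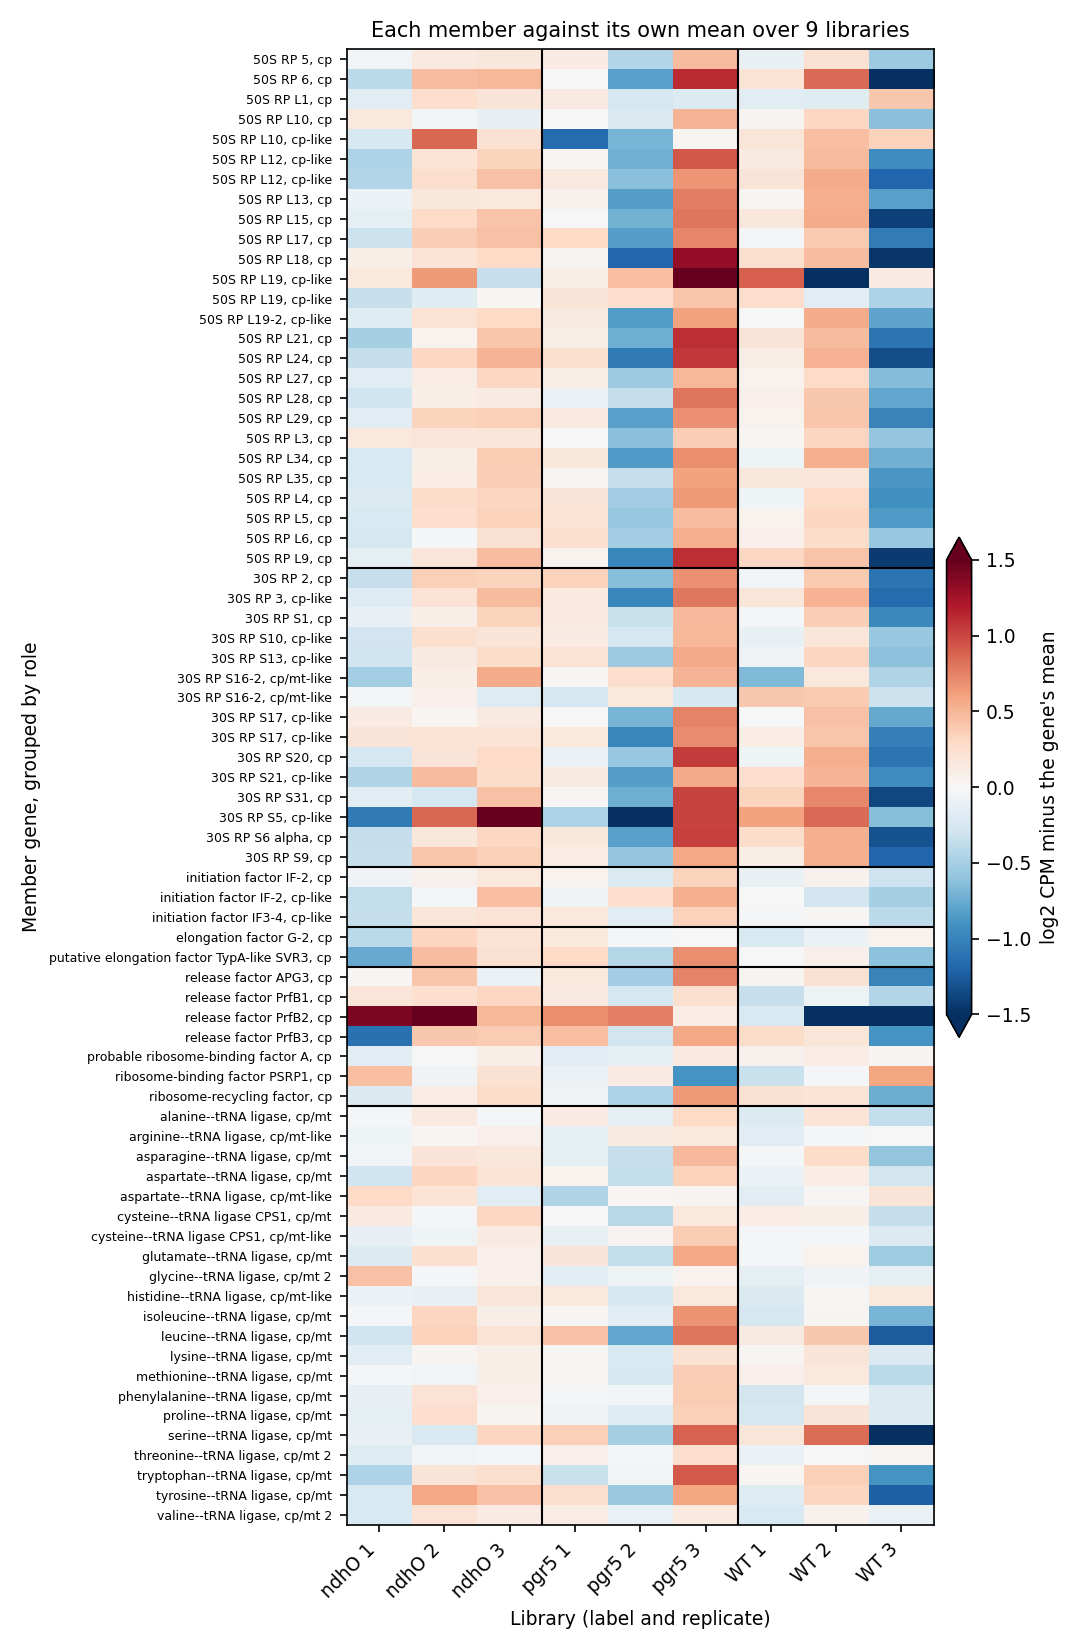
Each row is 1 of the 74 genes, grouped by role, and each column 1 library by label and replicate; colour is log2 CPM minus the gene's mean over the 9 libraries, from blue (-1.5 and below) through white to red (1.5 and above). Most ribosomal protein rows are blue in ndhO 1, pgr5 2 and WT 3 and red in pgr5 3, and tRNA ligase rows are paler.

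Proteins of the large subunit followed this library order most often, with 18 of 26 having ndhO 1, pgr5 2 and WT 3 as their 3 lowest libraries and 24 of 26 highest in pgr5 3. Their ratio of highest to lowest library had a median of 2.99, against 2.02 over all genes. L24 (LOC117854164), which in bacteria starts assembly of the large subunit, had 59.4, 94.3 and 109 CPM in the libraries labelled ndhO, 90.3, 36.4 and 159.6 CPM in those labelled pgr5, and 81.9, 109.9 and 30.2 CPM in those labelled WT. Its highest value was in pgr5 3 and its lowest in WT 3, a ratio of 5.29, and all 3 labels overlapped. Its log2 fold change was 0.24 ± 0.59 (± SE here and below) for ndhO minus WT and 0.37 ± 0.59 for pgr5 minus WT.

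The widest range among genes with a mean of at least 50 counts belonged to the 50S ribosomal protein 6 (LOC117834726), one of the plastid-specific proteins with no bacterial counterpart. It had 11.1, 20.2 and 20.7 CPM in the libraries labelled ndhO, 14.7, 8.29 and 32.0 CPM in those labelled pgr5, and 17.0, 26.6 and 3.76 CPM in those labelled WT, a ratio of 8.49 between pgr5 3 and WT 3. L18 (LOC117838360), which in bacteria carries the small rRNA of the large subunit into place, had 29.0, 31.6 and 33.5 CPM in the libraries labelled ndhO, 28.1, 12.0 and 68.4 CPM in those labelled pgr5, and 32.2, 37.7 and 9.81 CPM in those labelled WT. Its ratio was 6.96, again between pgr5 3 and WT 3, with pgr5 2 next to lowest. L9 (LOC117843049), which reaches out from the side of the bacterial subunit, had 63.0, 78.9 and 95.4 CPM in the libraries labelled ndhO, 72.0, 34.98 and 149.8 CPM in those labelled pgr5, and 86.2, 93.4 and 25.5 CPM in those labelled WT. Its ratio was 5.87 and its labels overlapped. The other plastid-specific large subunit protein, 50S ribosomal protein 5 (LOC117857986), stayed within a ratio of 2.04, with a lowest value of 43.5 CPM in WT 3 and a highest of 88.7 CPM in pgr5 3.

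The most highly counted large subunit genes were L1, L5 and L13. L5 (LOC117839690), a partner of L18 on the same small rRNA, had 145, 201 and 214 CPM in the libraries labelled ndhO, 194, 114 and 233 CPM in those labelled pgr5, and 176, 211 and 93.7 CPM in those labelled WT. L13 (LOC117858823), which binds early in bacterial assembly, had 133, 159 and 159 CPM in the libraries labelled ndhO, 148, 80.3 and 241 CPM in those labelled pgr5, and 145, 208 and 80.7 CPM in those labelled WT. Both were highest in pgr5 3 and had pgr5 2 and WT 3 as their lowest libraries. Among the others, L4 (LOC117840102), which lines the exit tunnel for the growing chain, had log2 fold changes of 0.30 ± 0.35 for ndhO minus WT and 0.33 ± 0.35 for pgr5 minus WT. L27 (LOC117854456), which in bacteria reaches the site of peptide bond formation, had log2 fold changes of 0.15 ± 0.29 and 0.14 ± 0.29 in the same comparisons.

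L1 (LOC117850037), whose bacterial counterpart forms the mobile stalk beside the exit site for tRNAs, departed from this order in WT 3 and pgr5 3. It had 400.5, 542 and 514 CPM in the libraries labelled ndhO, 494, 378 and 390.1 CPM in those labelled pgr5, and 404, 397 and 595 CPM in those labelled WT. The library labelled WT 3 was its highest, and it was below its own mean in pgr5 3, the reverse of most large subunit genes. Its lowest library was pgr5 2, and ndhO 1 was the lowest of those labelled ndhO. Its log2 fold change was 0.06 ± 0.21 for ndhO minus WT, -0.15 ± 0.21 for pgr5 minus WT and -0.21 ± 0.21 for pgr5 minus ndhO, and no pair of labels was free of overlap.

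Small subunit genes were alike: 10 of 15 had ndhO 1, pgr5 2 and WT 3 as their 3 lowest libraries, 12 were highest in pgr5 3, and the median ratio of highest to lowest was 3.10. S10 (LOC117839639), a protein of the subunit's head, had 137, 198 and 192 CPM in the libraries labelled ndhO, 182, 141 and 237 CPM in those labelled pgr5, and 155, 189.8 and 113 CPM in those labelled WT. S1 (LOC117839812), which in bacteria binds mRNA, had 114, 131 and 155 CPM in the libraries labelled ndhO, 136, 97.9 and 173 CPM in those labelled pgr5, and 121, 159 and 62.9 CPM in those labelled WT. S13 (LOC117838635), a head protein that contacts the large subunit, had 77.9, 105 and 116 CPM in the libraries labelled ndhO, 112, 65.8 and 142 CPM in those labelled pgr5, and 92.7, 119.9 and 62.8 CPM in those labelled WT. All 3 were highest in pgr5 3 and lowest in WT 3, and their labels overlapped in every comparison. Their log2 fold changes for pgr5 minus WT were 0.29 ± 0.25, 0.25 ± 0.32 and 0.22 ± 0.31, in the order S10, S1 and S13.

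Plastid-specific proteins of the small subunit, and S31, had the same highest and lowest libraries. The 30S ribosomal protein 2 (LOC117844579) had 66.4, 108 and 106 CPM in the libraries labelled ndhO, 107, 54.1 and 136 CPM in those labelled pgr5, and 82.3, 111 and 39.5 CPM in those labelled WT. The 30S ribosomal protein 3 (LOC117864297) had 55.6, 74.1 and 88.5 CPM in the libraries labelled ndhO, 70.4, 32.2 and 110.4 CPM in those labelled pgr5, and 72.2, 91.5 and 28.6 CPM in those labelled WT. S31 (LOC117852205) had 44.9, 42.1 and 68.3 CPM in the libraries labelled ndhO, 50.9, 30.4 and 102 CPM in those labelled pgr5, and 63.9, 83.6 and 19.5 CPM in those labelled WT, the largest ratio of highest to lowest library in the subunit (5.20) among genes with no count of 0. In all 3 the library labelled WT 3 was lowest and pgr5 3 highest, while in S31 ndhO 2 and not ndhO 1 was among the 3 lowest.

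Summed over each role, the labels overlapped except among the release, recycling and ribosome-binding factors. The 41 ribosomal protein genes summed to 2643, 3516 and 3747 CPM in the libraries labelled ndhO, 3332, 2073 and 4606 CPM in those labelled pgr5, and 3111, 3855 and 1998 CPM in those labelled WT. The means were 3302 ± 582 CPM in the libraries labelled ndhO, 3337 ± 1266 CPM in those labelled pgr5 and 2988 ± 934 CPM in those labelled WT (SD, n = 3 each), so differences between labels were smaller than the spread within any label. The large subunit genes alone averaged 2390.1 ± 411 CPM in the libraries labelled ndhO, 2383 ± 885 CPM in those labelled pgr5 and 2176 ± 597 CPM in those labelled WT (SD, n = 3 each). The small subunit genes alone averaged 912 ± 171 CPM in the libraries labelled ndhO, 954 ± 382 CPM in those labelled pgr5 and 812 ± 338 CPM in those labelled WT (SD, n = 3 each). The highest library exceeded the lowest by 2.19 times for the large subunit sum and by 2.98 times for the small subunit sum. The 7 release, recycling and ribosome-binding factors summed to 784, 689 and 777 CPM in the libraries labelled ndhO, 662, 656 and 561 CPM in those labelled pgr5, and 596, 686 and 813 CPM in those labelled WT. All 3 libraries labelled pgr5 were below all 3 labelled ndhO, and WT overlapped with both, a description with no test. This holds for the sum, in which the ribosome-binding factor PSRP1 was the largest part. PSRP1 alone had 603, 423 and 514 CPM in the libraries labelled ndhO, and 415, 478 and 236 CPM in those labelled pgr5. Over the 7 genes the median log2 fold change for pgr5 minus ndhO was -0.03, with 3 above 0 and 4 below.

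The 2 subunits kept step with each other once L1 was set aside. Large over small subunit summed CPM was 2.68, 2.61 and 2.59 in the libraries labelled ndhO, 2.58, 2.55 and 2.42 in those labelled pgr5, and 2.60, 2.44 and 3.42 in those labelled WT. WT 3 stood above the other 8 libraries. Without L1, a gene set aside after its values were seen, the same ratio was 2.12, 2.05 and 2.10 in the libraries labelled ndhO, 2.05, 1.90 and 2.13 in those labelled pgr5, and 2.13, 2.08 and 2.10 in those labelled WT. It then ran from 1.90 to 2.13 over the 9 libraries, with label means of 2.09 ± 0.0377, 2.03 ± 0.114 and 2.11 ± 0.0259 for ndhO, pgr5 and WT (SD, n = 3 each). L1 held 38.5% of the large subunit sum in WT 3, 25.4% in pgr5 2 and 11.97% in pgr5 3.

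**Figure D3:**
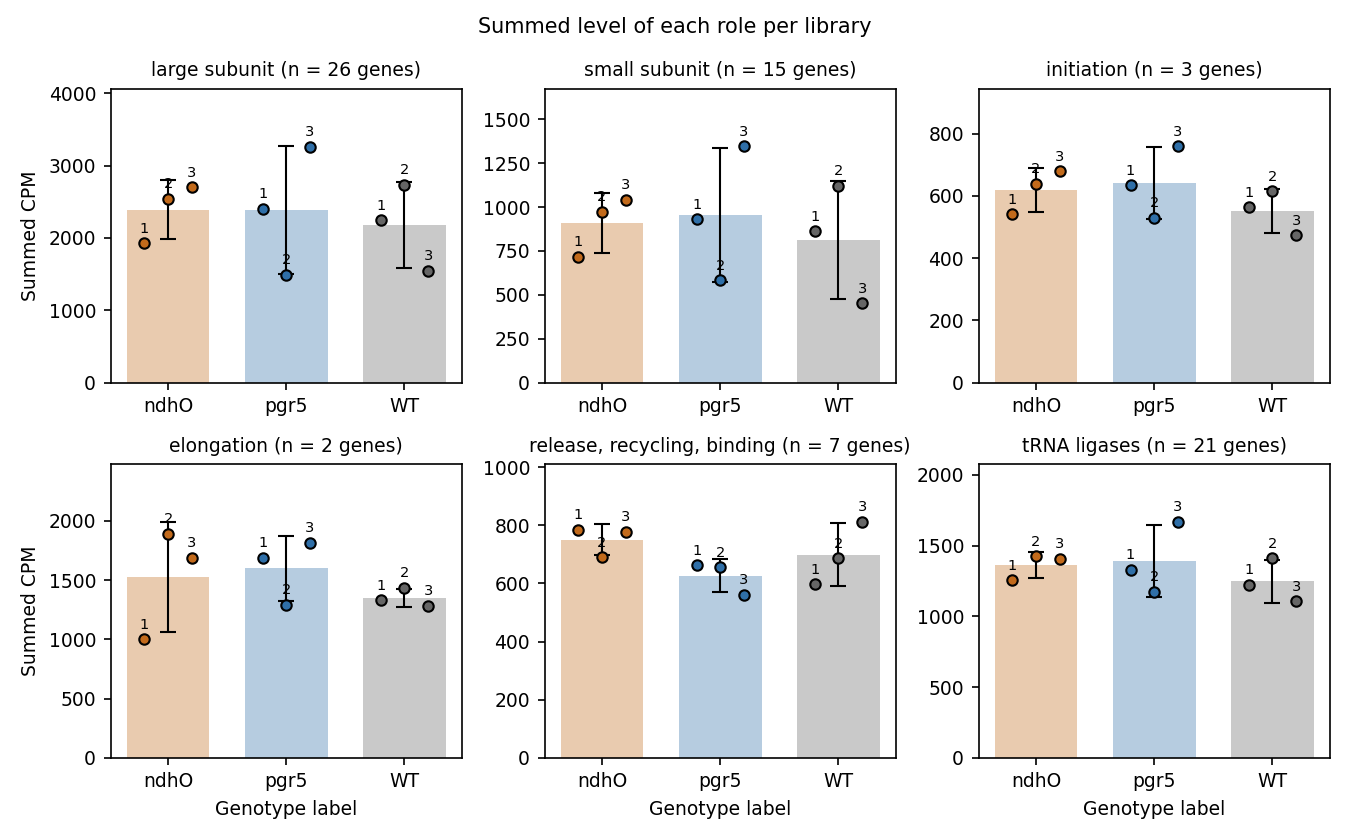
Summed CPM (y axis, from 0) of the genes of each role, by genotype label (x axis); points are libraries with their replicate numbers, bars are means and error bars the SD of 3 libraries. In both ribosomal subunits and the tRNA ligases pgr5 3 is the highest of the 9 libraries. The sum of the release, recycling and binding factors is instead lowest in pgr5 3, although 4 of these 7 genes are highest there. PSRP1, the most highly counted of the 7, is the 1 gene of this role that is lowest in pgr5 3.

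Among initiation factors, IF-2 (LOC117841709), the GTPase that brings the initiator tRNA to the small subunit, had 389, 420.1 and 449 CPM in the libraries labelled ndhO, 418, 349.7 and 509 CPM in those labelled pgr5, and 372, 420.0 and 326 CPM in those labelled WT. IF3-4 (LOC117841301), of the family that keeps the subunits apart before initiation, had 139.9, 204 and 208 CPM in the libraries labelled ndhO, 200.2, 161 and 228 CPM in those labelled pgr5, and 176, 182 and 137 CPM in those labelled WT. Both were highest in pgr5 3 and lowest in WT 3, within a ratio of 1.66. For IF-2 the log2 fold change was 0.17 ± 0.18 for ndhO minus WT and 0.19 ± 0.18 for pgr5 minus WT. The lesser IF-2-like gene (LOC117854410) had 12.3, 15.6 and 21.8 CPM in the libraries labelled ndhO, 15.4, 18.9 and 23.2 CPM in those labelled pgr5, and 16.0, 13.0 and 11.2 CPM in those labelled WT. It was highest in pgr5 3 and lowest in WT 3, and its pgr5 libraries overlapped with those labelled WT through pgr5 1 and WT 1 alone. Its log2 fold change for pgr5 minus WT was 0.51 ± 0.25 (unadjusted p = 0.0699, adjusted p = 1.00, edgeR). The authors' corrected values shift WT 1 to 3, ndhO 1 and ndhO 2 one way and the other 4 libraries the opposite way. With a term for that side the fold change was -0.13. Every WT library lies on one side and every pgr5 library on the other. The size of that term is therefore set by ndhO 3 against ndhO 1 and ndhO 2 alone.

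Both elongation factors were lowest in ndhO 1. Elongation factor G-2 (LOC117863885), the GTPase that moves the ribosome along the mRNA, had 662, 1096 and 1012 CPM in the libraries labelled ndhO, 980.3, 863 and 878 CPM in those labelled pgr5, and 747, 826 and 907 CPM in those labelled WT. Its highest library was ndhO 2, and it was neither high in pgr5 3 nor low in WT 3. TypA-like SVR3 (LOC117847490), a ribosome-associated GTPase that Arabidopsis needs for normal chloroplast development, had 341, 797 and 677 CPM in the libraries labelled ndhO, 709.9, 430.3 and 938 CPM in those labelled pgr5, and 581, 609.9 and 377 CPM in those labelled WT. It was highest in pgr5 3 and low in ndhO 1, WT 3 and pgr5 2, as the ribosomal proteins were. Log2 fold changes for pgr5 minus WT were 0.13 ± 0.21 for elongation factor G-2 and 0.41 ± 0.36 for SVR3.

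The ribosome-binding factor PSRP1 (LOC117838225) was high where most ribosomal proteins were low. It is related to the bacterial factors that hold ribosomes in an inactive state, and in spinach it was found bound at the decoding site of the small subunit. PSRP1 had 603, 423 and 514 CPM in the libraries labelled ndhO, 415, 478 and 236 CPM in those labelled pgr5, and 348, 435 and 665 CPM in those labelled WT. Its highest library was WT 3, followed by ndhO 1, and its lowest was pgr5 3. Within each label its highest library was the one of ndhO 1, pgr5 2 and WT 3. Its log2 fold change was 0.09 ± 0.30 for ndhO minus WT, -0.36 ± 0.30 for pgr5 minus WT and -0.45 ± 0.30 for pgr5 minus ndhO (unadjusted p = 0.171, adjusted p = 1.00, edgeR). Without pgr5 3 the last value was -0.20.

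Set over the summed ribosomal proteins of the same library, PSRP1 stood at 0.228, 0.120 and 0.137 in the libraries labelled ndhO, 0.125, 0.231 and 0.0513 in those labelled pgr5, and 0.112, 0.113 and 0.333 in those labelled WT. These ratios are not per length and are read only between libraries. They differed 6.49 times between WT 3 and pgr5 3, and each label held 1 library well above its other 2. For elongation factor G-2 the same ratio ran from 0.191 in pgr5 3 to 0.454 in WT 3.

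**Figure D4:**
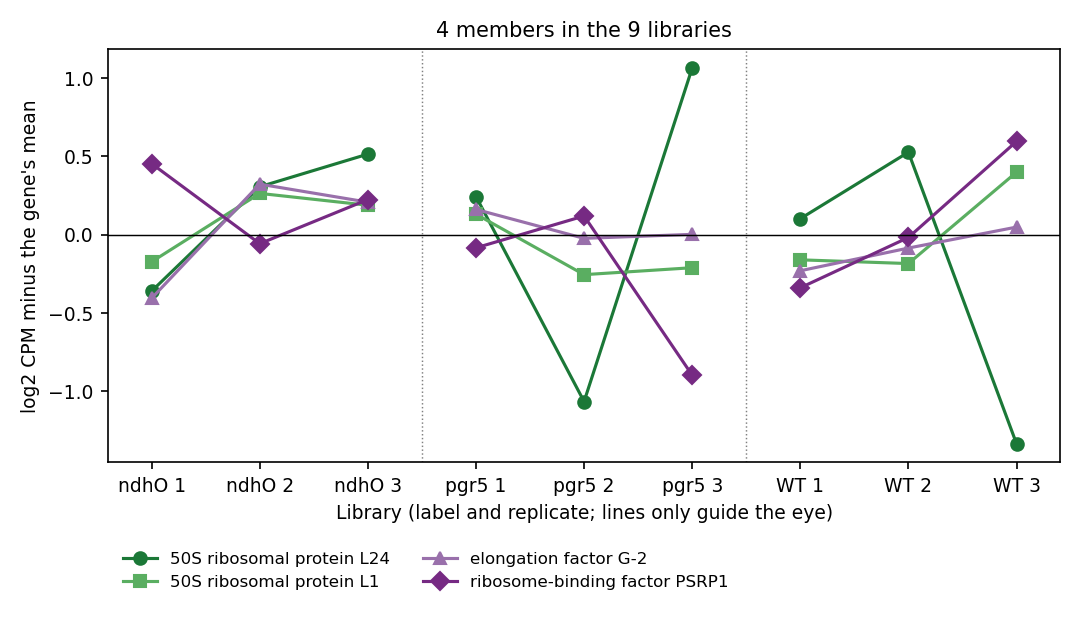
Log2 CPM minus the gene's mean over 9 libraries (y axis) for L24, L1, elongation factor G-2 and PSRP1 in each library (x axis); lines only guide the eye. L24 peaks in pgr5 3 and is lowest in WT 3, PSRP1 is lowest in pgr5 3 and highest in WT 3, and L1 and elongation factor G-2 vary less.

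The ribosome-recycling factor (LOC117860840), which with elongation factor G splits ribosomes after termination, had 60.0, 74.96 and 84.2 CPM in the libraries labelled ndhO, 67.1, 50.4 and 109 CPM in those labelled pgr5, and 81.2, 80.0 and 41.5 CPM in those labelled WT. It was highest in pgr5 3 and lowest in WT 3. APG3 (LOC117867069), in Arabidopsis the release factor of the kind that reads the stop codons UAA and UAG, was highest in pgr5 3 with 55.9 CPM and lowest in WT 3 with 16.5 CPM. PrfB3 (LOC117850434), which in Arabidopsis stabilises a chloroplast mRNA, had 28.1, 81.2 and 79.4 CPM in the libraries labelled ndhO, 83.6, 50.3 and 91.4 CPM in those labelled pgr5, and 74.3, 69.6 and 33.0 CPM in those labelled WT. It was lowest in ndhO 1 and WT 3 and its labels overlapped. The probable ribosome-binding factor A (LOC117852912), which in bacteria helps the small subunit mature, had 38.6, 42.8 and 46.2 CPM in the libraries labelled ndhO, 38.6, 38.7 and 47.7 CPM in those labelled pgr5, and 44.8, 46.5 and 44.2 CPM in those labelled WT. Its ratio of 1.24 was the lowest among the members with no count of 0.

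PrfB1 (LOC117845171), a release factor of the kind that reads UGA, had the lowest unadjusted p of the 74 genes for ndhO against WT. It had 19.3, 20.3 and 21.1 CPM in the libraries labelled ndhO, 18.7, 14.2 and 20.2 CPM in those labelled pgr5, and 13.4, 16.2 and 12.5 CPM in those labelled WT. All 3 libraries labelled ndhO were above all 3 labelled WT, while those labelled pgr5 overlapped with WT through pgr5 2. The log2 fold change for ndhO minus WT was 0.53 ± 0.19 (unadjusted p = 0.0177, adjusted p = 1.00, edgeR), and it ran from 0.45 to 0.65 when libraries were left out in turn. It did not pass the adjusted threshold.

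PrfB2 (LOC117836212), the other of the 2 genes at an unadjusted p under 0.05 in that comparison, was near the limit of detection. It had 28, 46 and 13 counts in the libraries labelled ndhO, 21, 15 and 12 counts in those labelled pgr5, and 10, 0 and 0 counts in those labelled WT. A count of 0 allows up to 0.232 CPM in WT 2 and 0.245 CPM in WT 3 (3 counts per library, counting error only). On the CPM scale, it had 1.92, 2.69 and 0.958 CPM in the libraries labelled ndhO, 1.12, 1.17 and 0.701 CPM in those labelled pgr5, and 0.525, 0 and 0 CPM in those labelled WT. Both mutant labels lay above all WT libraries, at an unadjusted p of 0.0292 for ndhO against WT and 0.0902 for pgr5 against WT (adjusted p = 1.00 and 1.00, edgeR). Fitted to the counts, the log2 fold change of PrfB2 was 3.23 ± 1.28 for ndhO minus WT and 2.34 ± 1.25 for pgr5 minus WT. In the authors' deposited table PrfB2 had the lowest adjusted p of the 74 for pgr5, 0.113, with a log2 fold change of 4.45. Counts of 2 other genes also reached 0 in 1 library each: L19-like (LOC117846439) in WT 2 and S5-like (LOC117856204) in pgr5 2.

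Groups that did not overlap were no more frequent in the set than in the table. For ndhO against WT, 3 of 74 genes were higher in every library labelled ndhO (4.56% of all genes were), namely PrfB1, PrfB2 and the glycine tRNA ligase, and 0 of 74 were lower in every one (4.07% of all genes). For pgr5 against WT, PrfB2 was higher without overlap (1 of 74, against 3.38% of all genes) and L10-like was lower (1 of 74, against 2.94%). For pgr5 against ndhO, L19-like (LOC117864366) was higher without overlap (1 of 74, against 4.15%) and 0 of 74 were lower (4.1%).

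The tRNA ligases, which charge tRNAs with their amino acids, varied less between libraries than the ribosomal proteins, with a median ratio of highest to lowest of 1.65. Fewer of them than of the ribosomal proteins had ndhO 1, pgr5 2 and WT 3 as their 3 lowest libraries. The count was 5 of 21 (23.8%, against 5.56% of all genes), and 16 of 21 were highest in pgr5 3 (16.9% of all genes). Below their own mean were 18 of 21 in each of ndhO 1 (46.3% of all genes), pgr5 2 (48.2%) and WT 3 (50%). In pgr5 3 that held for 0 of 21, against 47.9% of all genes. Together they averaged 1363 ± 92.4 CPM in the libraries labelled ndhO, 1390.4 ± 254 CPM in those labelled pgr5 and 1246 ± 155 CPM in those labelled WT (SD, n = 3 each). The threonine enzyme (LOC117842489), the most highly counted of them, had 183, 201 and 205 CPM in the libraries labelled ndhO, 219, 203 and 249 CPM in those labelled pgr5, and 193, 206 and 212 CPM in those labelled WT. It was highest in pgr5 3 and lowest in ndhO 1, within a ratio of 1.36.

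Glycine--tRNA ligase (LOC117852549) had 165, 119.8 and 128 CPM in the libraries labelled ndhO, 109, 115 and 126 CPM in those labelled pgr5, and 111, 117 and 111 CPM in those labelled WT. All 3 libraries labelled ndhO exceeded all 3 labelled WT, by the most in ndhO 1 and narrowly in ndhO 2. The log2 fold change for ndhO minus WT was 0.29 ± 0.15 (unadjusted p = 0.0836, adjusted p = 1.00, edgeR), and 0.14 without ndhO 1. The isoleucine enzyme (LOC117840186) had 67.4, 86.5 and 73.4 CPM in the libraries labelled ndhO, 69.95, 61.5 and 109.7 CPM in those labelled pgr5, and 57.7, 71.1 and 42.4 CPM in those labelled WT, with pgr5 3 highest and WT 3 lowest. Its log2 fold change was 0.41 ± 0.25 for ndhO minus WT and 0.49 ± 0.25 for pgr5 minus WT (adjusted p = 1.00 in both, edgeR). Without WT 3 these values were 0.23 and 0.32, and without pgr5 3 the value for pgr5 minus WT was 0.20.

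The tyrosine enzyme (LOC117838666) had the largest fold change of the ligases for ndhO minus WT, 0.53 ± 0.41, which was 0.21 without WT 3 and 0.93 without WT 2. It had 12.9, 22.6 and 20.6 CPM in the libraries labelled ndhO, 17.8, 10.3 and 22.7 CPM in those labelled pgr5, and 13.3, 18.9 and 6.38 CPM in those labelled WT. The libraries labelled ndhO 1, pgr5 2 and WT 3 were its 3 lowest, and the labels overlapped. The serine enzyme (LOC117834102) had 13.0, 12.0 and 17.6 CPM in the libraries labelled ndhO, 17.98, 9.94 and 25.997 CPM in those labelled pgr5, and 15.9, 25.2 and 4.09 CPM in those labelled WT, a ratio of 6.36 between pgr5 3 and WT 3 and the widest of the ligases. The aspartate enzyme (LOC117845001) had 81.4, 126 and 116 CPM in the libraries labelled ndhO, 105, 77.5 and 128 CPM in those labelled pgr5, and 95.0, 109 and 82.9 CPM in those labelled WT, within a ratio of 1.65. The glutamate enzyme (LOC117862550), whose product also feeds chlorophyll synthesis, ran from 30.9 CPM in WT 3 to 66.8 CPM in pgr5 3.

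For 8 kinds of protein the table held a pair of genes whose descriptions were identical (S16-2, S17, L12 and L19) or differed only by an ending in "-like" (L10, IF-2 and the aspartate and cysteine ligases). Reads of near-identical copies may have been split between them by the authors' counting, so shares within a pair are uncertain. The share of the lesser L10 copy (LOC117847388) in the summed counts of both L10 genes was 6.93, 15.73 and 11.2% in the libraries labelled ndhO, 4.06, 6.44 and 6.58% in those labelled pgr5, and 9.90, 9.88 and 16.4% in those labelled WT. All 3 libraries labelled pgr5 were below all those labelled ndhO and WT. On the CPM scale that copy had 2.74, 6.01 and 3.83 CPM in the libraries labelled ndhO, 1.39, 1.96 and 3.33 CPM in those labelled pgr5, and 3.73, 4.48 and 4.17 CPM in those labelled WT, with log2 fold changes of -0.89 ± 0.42 for pgr5 minus WT (unadjusted p = 0.0624, edgeR) and -0.91 ± 0.42 for pgr5 minus ndhO (unadjusted p = 0.0557, edgeR). Neither passed after adjustment (adjusted p = 1.00 and 1.00), and without ndhO 2 the value for pgr5 minus ndhO was -0.56. The main L10 gene (LOC117840408), a base of the stalk that recruits translation factors, had 36.8, 32.2 and 30.3 CPM in the libraries labelled ndhO, 32.8, 28.4 and 47.3 CPM in those labelled pgr5, and 33.9, 40.9 and 21.3 CPM in those labelled WT.

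Of the counts of the S16-2 pair, the lesser copy (LOC117861110) held 29.8, 23.0 and 15.1% in the libraries labelled ndhO, 19.9, 21.9 and 14.98% in those labelled pgr5, and 39.4, 26.5 and 24.7% in those labelled WT. The libraries labelled pgr5 lay below those labelled WT without overlap, while ndhO overlapped with both. The main S16-2 gene (LOC117846362) had 5.49, 8.41 and 11.6 CPM in the libraries labelled ndhO, 7.95, 9.47 and 11.3 CPM in those labelled pgr5, and 4.93, 8.81 and 5.73 CPM in those labelled WT, with a log2 fold change of 0.56 ± 0.33 for pgr5 minus WT. That value was 0.85 without WT 2. With the term for the side of the authors' correction, set by ndhO 3 against ndhO 1 and ndhO 2 alone, it was -0.18. For the L19 pair, the copy with more counts (LOC117864366) had 3.57, 4.03 and 4.64 CPM in the libraries labelled ndhO, 5.23, 5.48 and 6.13 CPM in those labelled pgr5, and 5.51, 4.10 and 3.27 CPM in those labelled WT. All 3 libraries labelled pgr5 exceeded all 3 labelled ndhO, with a log2 fold change of 0.46 ± 0.29 (unadjusted p = 0.145, adjusted p = 1.00, edgeR). Another L19 gene, L19-2 (LOC117865023), fell outside the pair by its description and averaged 94.5 CPM over the 9 libraries. Its log2 fold change for pgr5 minus ndhO was -0.04 ± 0.39, and those labels overlapped.

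Shares in the other 6 pairs overlapped between all labels. The lesser copy held from 12.7% to 16.1% of the L12 counts, where L12 is the flexible stalk protein itself. It held from 19.9% to 25.3% for S17, whose copies (LOC117848823 and LOC117848824) lie 2 genes apart in the RefSeq order. It held from 3.00% to 5.14% for IF-2, from 9.79% to 19.03% for the aspartate ligase and from 29.5% to 40.97% for the cysteine ligase. For L19, with L19-2 left out, it held from 0% in WT 2 to 39.7% in pgr5 3, on low counts.

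Other gene lists were set beside the 74 genes, none of which had a gene past the adjusted threshold (edgeR). Cytosolic ribosomal proteins (191 genes) shared the high value in pgr5 3 and the low one in WT 3, with median deviations of 0.96 and -0.54 on the log2 CPM scale. In pgr5 2 they stood at -0.11, where the 41 chloroplast ribosomal proteins stood at -0.64. In WT 2 the cytosolic list stood at -0.13 and the chloroplast list at 0.42. Chloroplast over cytosolic ribosomal protein sums were 0.597, 0.565 and 0.772 in the libraries labelled ndhO, 0.758, 0.435 and 0.480 in those labelled pgr5, and 0.585, 0.814 and 0.550 in those labelled WT, and the labels overlapped.

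Genes that act before chloroplast translation were also highest in pgr5 3 and lowest in WT 3. Plastid transcription genes (8) had median deviations of 0.64 and -0.48 in those libraries, and genes of plastid RNA maturation and ribosome assembly (20) had 0.54 and -0.47. Median log2 fold changes were 0.29 for plastid transcription and 0.25 for RNA maturation for ndhO minus WT, and 0.37 and 0.30 in the same order for pgr5 minus WT. Nascent chain handling genes (10), such as deformylases and the signal recognition particle, had 0.30 for ndhO minus WT and 0.20 for pgr5 minus WT. Chaperones and Clp protease genes (32) had 0.09 and 0.15.

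Photosystem and antenna genes, whose partner subunits the chloroplast ribosome makes, were low in ndhO 1 (-0.37), pgr5 2 (-0.26) and WT 3 (-0.54) too. Their highest library was WT 2 (0.39), not pgr5 3. The median log2 fold change was -0.10 both for ndhO minus WT and for pgr5 minus WT, below 0 where that of the translation genes was above it. Summed chloroplast ribosomal proteins over summed photosystem and antenna genes gave 0.0317, 0.0321 and 0.0315 in the libraries labelled ndhO, 0.0337, 0.0235 and 0.0392 in those labelled pgr5, and 0.0263, 0.0285 and 0.0256 in those labelled WT. The 3 libraries labelled ndhO were above the 3 labelled WT, and those labelled pgr5 lay on both sides of them. This ratio is not per length, was one of several looked at and carries no test.

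Markers of other cell types were read in the same libraries, and their part in the results was not tested. The 33 genes of dividing cells stayed between -0.09 and 0.10 in median deviation, and summed to 1261, 1293 and 1264 CPM in the libraries labelled ndhO, 1325, 1376 and 1309 CPM in those labelled pgr5, and 1347, 1259 and 1305 CPM in those labelled WT. The 27 genes of epidermis and cuticle were low in pgr5 2 (-0.27), pgr5 3 (-0.25) and WT 3 (-0.23). Their sums were 2999, 4171 and 4277 CPM in the libraries labelled ndhO, 3573, 1989 and 3042 CPM in those labelled pgr5, and 2465, 3652 and 2538 CPM in those labelled WT. The 40 genes of lignifying vascular tissue were highest in pgr5 3 (0.36) and lowest in pgr5 2 (-0.23). Their sums were 998, 1061 and 1113 CPM in the libraries labelled ndhO, 1034, 928 and 1360.0 CPM in those labelled pgr5, and 1107, 1297 and 1005 CPM in those labelled WT. By label, the sums of the 3 lists overlapped between pgr5 and WT and between ndhO and WT. Between pgr5 and ndhO, the dividing-cell sums did not overlap, with all 3 libraries labelled pgr5 above all 3 labelled ndhO, and the other 2 lists overlapped. A count of 0 in at least 1 library was found for 2 of 33, 5 of 27 and 8 of 40 genes, in the order of the lists above.

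**Figure D5:**
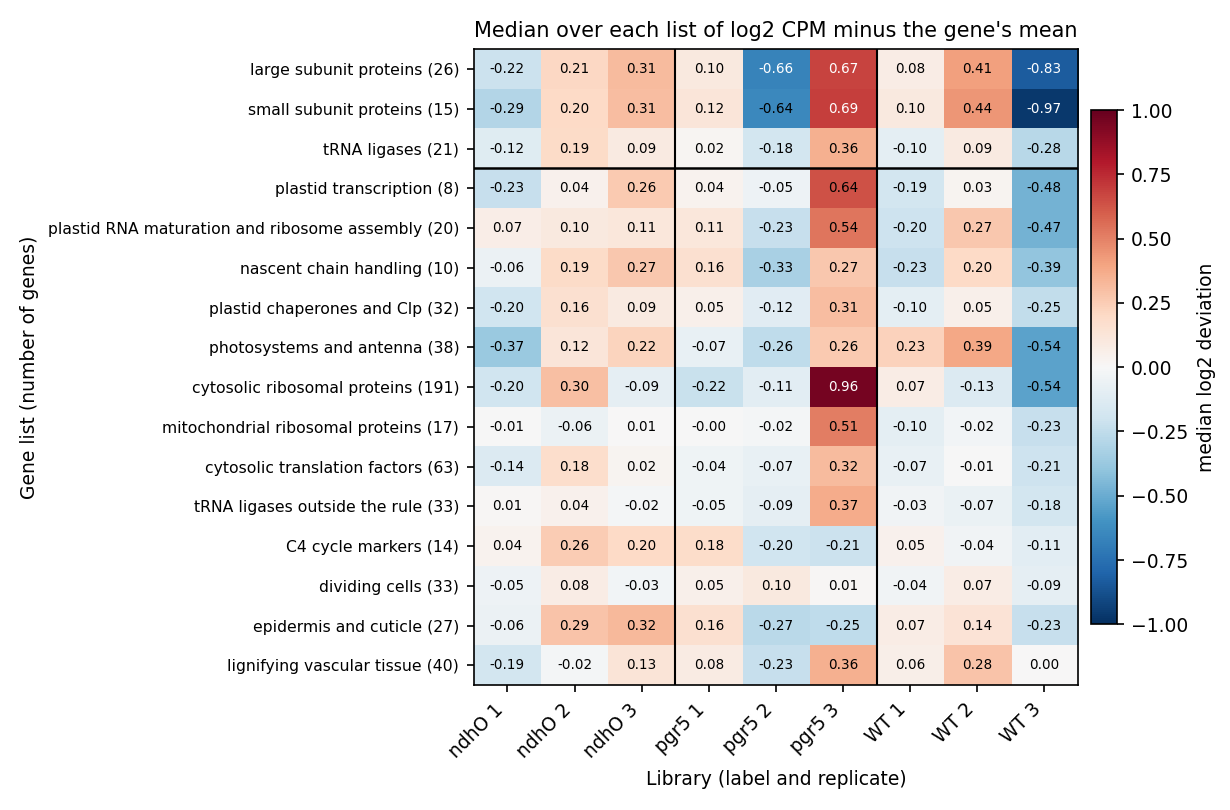
Median over each gene list (rows, with the number of genes) of log2 CPM minus the gene's mean over 9 libraries, by library (columns), printed in each cell and coloured from blue (-1) to red (1). The 3 top rows are roles of the chloroplast translation set; the ribosomal subunits have values of -0.66 and -0.64 in pgr5 2, where cytosolic ribosomal proteins have -0.11.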

How the data were processed

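Per the labels' protocols, paired reads came from stranded poly(A) libraries. The submitters' processing notes list limma 3.62.2 and edgeR 4.4.1, with StringTie 2.2.3 and, for reads, Trim Galore 0.6.7 and FastQC 0.11.9; aligner and build: not given in the sources used here. Per the file headers, the authors deposited whole-number counts per gene and library, corrected log2 CPM, log2 fold changes against WT with p-values, and t and B statistics, the last treated as a score and not used. The deposited counts alone entered the tests. The authors' correction is not described. In the corrected values ndhO 3 equals the mean of ndhO 1 and 2 for every gene (largest gap 1.2e-08, tolerance 1e-06). Mutant columns were matched to samples by label and last number, since the meaning of a middle number in their names is not stated.

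Counts were fitted in R 4.3.3 with edgeR 4.0.16. Library sizes were scaled with TMM, genes with low counts were dropped by edgeR's default rule (17970 left), and a robust quasi-likelihood test was run in a single model of genotype over the 9 libraries. Benjamini-Hochberg adjustment covered all genes, at a threshold of 0.05. DESeq2 1.42.0, limma-voom (limma 3.58.1), other scalings, no filter, a replicate block, a term for the side of the authors' correction and leaving out each library were alternatives. The common biological coefficient of variation was 0.383. Log2 CPM used a prior count of 2. The code was tested on simulated data. No exact permutation test was run, since 0.1 is the smallest p that 3 against 3 libraries allow. Libraries of one label differed beyond sampling noise (chi-square per degree of freedom from 21.6 to 104), so none was merged.

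The members and comparison lists were chosen with earlier results of these data known. Lists were defined by words in the descriptions, and 4 genes stand in both the cytosolic and the mitochondrial ribosomal list. A list of 29 bacterial-type ribosomal proteins with no compartment named, added after the descriptions were read, had median log2 fold changes of 0.11 for ndhO minus WT and 0.17 for pgr5 minus WT. Named members were those with the highest mean level in each role, the lowest unadjusted p or the largest fold change in each comparison, the widest range between libraries, any count of 0, or a copy whose description matched apart from "-like". The plastid-specific proteins 5, 2 and 3, and S31, L4, L27, APG3, ribosome-binding factor A and the glutamate enzyme, were named for their roles or ranges after their values were seen. L19-2 was named as another L19 gene, also after its values were seen. RefSeq gave symbols and gene order only, for 17558 of 17987 genes.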

Additional observations from a re-analysis of the deposited data

How the results depend on the processing

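Under 18 alternatives per comparison, the count of chloroplast translation genes called stayed at 0 in all 54 counts, and each of 51 alternative medians moved by less than the spread between libraries of one label (0.42). That margin is wider than each main median, so medians could change sign within it, and some did. Leaving out 1 library at a time gave medians from -0.05 to 0.38 for ndhO minus WT, from -0.07 to 0.45 for pgr5 minus WT and from -0.25 to 0.25 for pgr5 minus ndhO. Genes called in the whole table stayed at 0 except with DESeq2, which called 16, 6 and 12 in that order of comparisons. A term for the side of the authors' correction (WT 1 to 3, ndhO 1 and ndhO 2 against the rest) gave medians of 0.09, -0.05 and -0.10, and limma-voom gave -0.01 for pgr5 minus ndhO. The side term was set by ndhO 3 against ndhO 1 and ndhO 2 alone, since no other label has libraries on both sides. Of 204 alternative values for 12 named fold changes, 202 kept their direction and side of the threshold. The other 2, both for pgr5 minus WT under that term, were -0.13 for the IF-2-like gene and -0.18 for S16-2. Same-numbered libraries did not deviate together (correlations from -0.38 to 0.06, while the highest of any pair, 0.32, was between pgr5 2 and WT 3). The labels do not say whether the replicate number pairs libraries, and these correlations cannot decide it. With a replicate block the medians were 0.14, 0.18 and 0.04 and 0 genes were called. Genes with low counts, PrfB2 with a mean of 16.1 counts above all, are limited by depth, and counts of 0 in single libraries bound their levels only from above. The causes of these shifts were not tested.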

Other observations

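Translation genes outside the chloroplast set gave values of their own. Mitochondrial ribosomal proteins (17 genes) summed to 207, 188 and 199.8 CPM in the libraries labelled ndhO, 187, 181 and 227 CPM in those labelled pgr5, and 174, 191 and 196 CPM in those labelled WT. Their median log2 fold change was 0.09 for ndhO minus WT and 0.21 for pgr5 minus WT, with 0 genes past the adjusted threshold (edgeR) and, at an unadjusted p under 0.05, 0 of 17 for ndhO minus WT (2.74% of all genes) and 3 of 17 for pgr5 minus WT (2.06% of all genes). The median deviation of this list was 0.51 in pgr5 3, beside -0.0025 in pgr5 1 and -0.02 in pgr5 2. Cytosolic ribosomal proteins had a median log2 fold change of 0.46 for pgr5 minus WT and 0.17 for ndhO minus WT. For pgr5 minus WT, 186 of 191 were above 0 and 12 of 191 had an unadjusted p under 0.05 (2.06% of all genes, edgeR). Of the 191, 174 were highest in pgr5 3 (16.9% of all genes). Their median deviation was -0.22 in pgr5 1 and -0.11 in pgr5 2. Genes of a list are not replicates of one another, so these counts carry no test. Cytosolic translation factors (63 genes) had 0.13 for ndhO minus WT and 0.21 for pgr5 minus WT. The 33 tRNA ligases outside the chloroplast set had 0.08 and 0.16 in the same comparisons, and a median deviation of 0.37 in pgr5 3 against 0.36 for the 21 within it.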
